A study of Mus musculus with 6 samples.

Results

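The genes described here were 32 nuclear receptor genes that act in liver metabolism, chosen by name from the 18169 genes of the table. The receptors of the circadian clock, the *Nr4a* group and *Hnf4a* were left out of the choice. All 32 had a row in the table, 25 had enough counts to be tested and 7 did not. The libraries came from Hepa 1–6 cells, a mouse hepatoma line that the labels call mouse hepatocyte, so both groups share one tumour-derived cell line and no animal, allele or diet was varied in them. In 3 libraries the cells had been given vehicle and in 3 libraries Shh, the sonic hedgehog ligand. The dose and duration of Shh for these libraries were not given in the sources used here, and the comparison asks which RNAs differ between cells given Shh and cells given vehicle.

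Nuclear receptors are transcription factors with a zinc-finger domain that binds DNA and, in most members, a pocket that binds a small lipid-soluble ligand. Many of the metabolic ones bind DNA as a pair with a retinoid X receptor (RXR). Without ligand several of them hold corepressor complexes on DNA, and ligand exchanges these for coactivators. In hepatocytes they sense fatty acids, oxysterols, bile acids, drugs, retinoids, thyroid hormone and steroids, and set the enzymes and transporters that handle them.

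The libraries held 20253781 to 20335463 estimated counts. They come from lysates of many cells of one line, so fewer cells with an RNA and less of it per cell cannot be told apart. The labels do not name separate cultures, so a p-value here is set against a spread that may be technical. Shh 2 stood apart: for pairs of libraries that include it, the chi-square of the counts per degree of freedom, which is 1 under counting noise alone, was 6.32 to 12.2, against 1.70 to 4.91 for the other pairs. Shh 2 also held the highest value of 9 and the lowest of 4 of the 25 tested receptor genes. Among hepatocyte markers *Alb*, *Afp*, *Trf* and *Fgb* were abundant, whereas *Ttr* reached at most 0.593 CPM and *Serpina1a* at most 0.151 CPM. The hedgehog target *Gli1* was at 2.49, 2.14 and 2.37 CPM with vehicle and 2.32, 2.70 and 2.16 CPM with Shh, so the groups overlapped, and the receptor gene *Ptch1* differed by 0.030 on the log2 scale (SE 0.065).

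No receptor gene was called in the comparison of Shh with vehicle. At an adjusted p under 0.05, edgeR called 0 of the 25 tested, and 0% of all 12286 genes tested. DESeq2 likewise called 0 of either, at 814 genes with an unadjusted p under 0.05 against 1277 in edgeR. At an unadjusted p under 0.05, 1 receptor gene was higher with Shh, *Nr3c1*, which is 4.0% of those tested beside 4.83% of all genes. No tested receptor gene was lower at that level, beside 5.56% of all genes. These shares lie near the background and are not a result about the receptors. The log2 fold changes ran from -0.14 to 0.19 with 10 above 0 and 15 below, and their median was -0.0074 beside 0.0028 for all genes. For 23 of the 25 genes the 95% interval lay within a 1.5-fold change in either direction.

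Levels differed far more between receptors than between groups. On the FPKM scale, which corrects for transcript length and so allows genes to be compared, 7 of the 32 lay at 10 or more in the vehicle mean, 13 between 1 and 10, and 12 below 1. Of all 18169 genes, 33.2% were at 10 or more and 42.5% below 1. The order was led by *Nr1h2* at a mean of 41.4 FPKM (SD 1.05, n = 6), *Rarg* at 37.5 FPKM (SD 1.24, n = 6), *Esrra* at 31.5 FPKM (SD 1.38, n = 6) and *Nr2f6* at 30.3 FPKM (SD 1.00, n = 6). The range of *Nr1h2* over the libraries did not overlap with that of *Rarg*, nor that of *Rarg* with *Esrra*, whereas those of *Esrra* and *Nr2f6* overlapped. *Rxrb*, *Ppard* and *Rara* followed at 16.8, 16.1 and 14.2 FPKM, each overlapping the next, and *Rara* did not overlap with *Rxra* below it. From *Rxra* at 9.83 FPKM through *Nr3c1*, *Nr2f2* and *Thra* to *Nr2c1* at 5.92 FPKM the ranges of neighbours overlapped. Several receptors known from adult hepatocytes, *Ppara*, *Nr1i3*, *Nr1i2* and *Nr0b2*, were among the 12 below 1 FPKM.

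**Figure D1:**
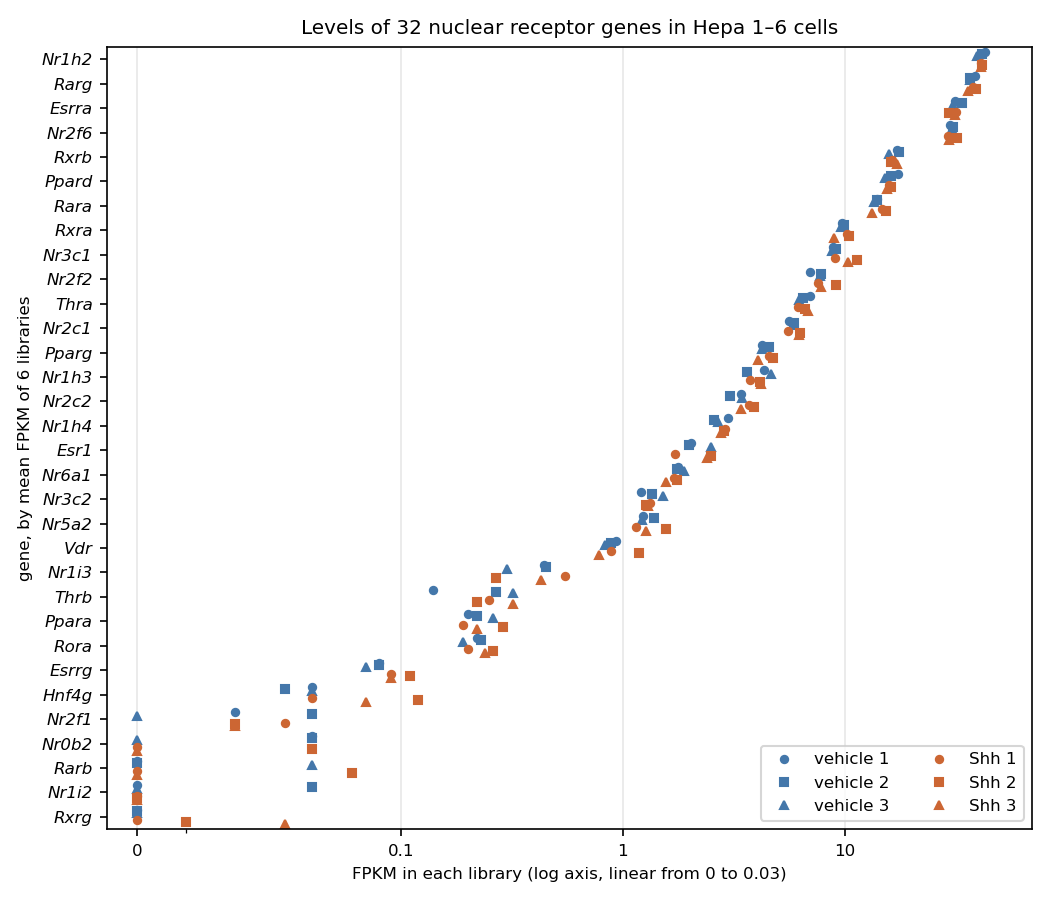
FPKM of the 32 nuclear receptor genes in each of the 6 libraries, on a log axis that is linear from 0 to 0.03; circles, squares and triangles are libraries 1, 2 and 3 of vehicle (blue) and Shh (orange). The genes span from 41.4 FPKM for *Nr1h2* to 0.0067 FPKM for *Nr1i2* and *Rxrg*, while the libraries of a gene lie close together down to about 1 FPKM.

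The peroxisome proliferator-activated receptors (PPARs) sense fatty acids: *Ppara* drives hepatic fat burning and ketone production, *Pparg* fat storage, and *Ppard* is the widely expressed form. *Ppara*, known as abundant in adult liver, was the lowest of them in Hepa 1–6 cells. *Ppard* made up 78.0% ± 1.53 (SD, n = 3) of the FPKM of the 3 genes with vehicle, *Pparg* 20.9% ± 1.37 (SD, n = 3) and *Ppara* 1.10% ± 0.209 (SD, n = 3). With Shh the shares were 77.2% ± 1.01, 21.7% ± 0.937 and 1.13% ± 0.223 (SD, n = 3 each), so each moved by less than its spread.

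*Ppara* held 21, 21 and 28 counts with vehicle and 19, 29 and 23 with Shh. The groups overlapped, and the log2 fold change was -0.0041 (SE 0.27, 95% interval -0.58 to 0.58, adjusted p = 0.996 in edgeR). That interval runs from 0.667-fold to 1.49-fold, so changes of this size are not excluded at this depth. *Pparg* was at 8.13, 8.86 and 8.75 CPM with vehicle and 8.70, 9.05 and 7.85 CPM with Shh, where the highest and the lowest library were both of Shh. Its log2 fold change was -0.0074 (SE 0.093, interval -0.21 to 0.19, adjusted p = 0.984). *Ppard* was at 56.1, 51.6 and 48.2 CPM with vehicle and 50.5, 50.1 and 49.0 CPM with Shh. All Shh libraries lay inside the vehicle range, with a log2 fold change of -0.060 (SE 0.057, interval -0.18 to 0.063, adjusted p = 0.71).

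Of 16 listed PPAR alpha targets, 9 were tested and 0 called, with 4 above 0, 5 below and a median of -0.017. *Vnn1*, which makes pantothenate for coenzyme A, was at 5.54, 5.63 and 5.64 CPM with vehicle and 6.33, 7.13 and 7.11 CPM with Shh. Every Shh library lay above every vehicle library, as in 6.77% of all genes tested, and the log2 fold change of 0.29 (SE 0.10) had an adjusted p of 0.469 in edgeR. *Angptl4*, which encodes an inhibitor of lipoprotein lipase, was at 157, 147 and 138 CPM against 142, 129 and 136 CPM, and the groups overlapped (log2 fold change -0.12, SE 0.053, adjusted p = 0.477). Of 9 listed targets of PPAR gamma and delta, 7 were tested and 0 called, and their median was -0.058. That median averages libraries that went opposite ways, at 0.67 in Shh 1, -0.53 in Shh 2 and -0.48 in Shh 3 relative to the vehicle mean (log2). It was -0.51 without Shh 1, with 3 of the 7 lower at an unadjusted p under 0.05, and 0.091 without Shh 2. Leaving out Shh 1 also raised the background, to 21.1% of all genes at that level from 10.4% in the main fit. Of 12286 genes, 1280 then passed it downward and 1314 upward, and the 3 of 7 were not tested against that share. The median of the stellate cell and fibroblast markers moved with the target median. It was 0.85 in Shh 1, -0.69 in Shh 2 and -0.74 in Shh 3, and its part in the result was not tested. *Cidec*, a lipid droplet protein, had the smallest p of these at 6.13, 5.68 and 7.71 CPM with vehicle against 11.2, 7.22 and 6.67 CPM with Shh. That difference sat in Shh 1, and without it the log2 fold change went from 0.36 (SE 0.18) to 0.094. *Ucp2*, a mitochondrial carrier, followed with a log2 fold change of -0.058 (SE 0.041).

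The liver X receptors (LXRs, *Nr1h2* and *Nr1h3*) sense oxysterols and drive cholesterol efflux and fatty acid synthesis. *Nr1h2*, the widely expressed LXR beta, made up 90.8% ± 1.24 (SD, n = 3) of the FPKM of the pair with vehicle and 91.1% ± 0.462 (SD, n = 3) with Shh. *Nr1h3*, the LXR alpha of liver, macrophage and fat, was at 7.13, 6.27 and 7.76 CPM with vehicle and 6.53, 6.65 and 6.87 CPM with Shh. Every Shh library lay inside the vehicle range (log2 fold change -0.079, SE 0.11, interval -0.31 to 0.15, adjusted p = 0.811). *Nr1h2* differed by -0.033 (SE 0.046) on the log2 scale.

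Of 11 listed LXR targets, 8 were tested and 0 called, with 5 above 0, 3 below and a median of 0.020. *Abca1*, which exports cholesterol from cells, was at 52.5, 51.7 and 54.9 CPM with vehicle and 53.4, 60.3 and 59.1 CPM with Shh. Shh 1 lay among the vehicle libraries and the other Shh libraries above them (log2 fold change 0.12, SE 0.055, adjusted p = 0.479). *Mylip*, which degrades the LDL receptor, differed by 0.21 (SE 0.21). *Abcg5* and *Abcg8*, the sterol exporters of the canalicular membrane, had at most 1 count in any library.

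The farnesoid X receptor (FXR, *Nr1h4*) senses bile acids, small heterodimer partner (SHP, *Nr0b2*) is a repressor without a DNA-binding domain that FXR induces, and liver receptor homolog-1 (*Nr5a2*) drives bile acid synthesis genes that SHP represses. The upstream receptors were present and the repressor was not detectable above the floor. *Nr1h4* was at 6.08, 5.28 and 5.49 CPM with vehicle and 5.74, 5.78 and 5.54 CPM with Shh, all Shh libraries inside the vehicle range (log2 fold change 0.018, SE 0.11, interval -0.22 to 0.26, adjusted p = 0.965). *Nr5a2* was at 5.24, 6.02 and 5.64 CPM with vehicle and 4.95, 6.26 and 5.49 CPM with Shh, so Shh held both extremes (log2 fold change -0.016, SE 0.12). *Nr0b2* had 1, 1 and 0 counts with vehicle and 0, 1 and 0 with Shh. A count of 0 allows up to 3 counts, which was 0.1445 to 0.1496 CPM over the libraries, and all 6 values lay under it. No fold change was given.

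The promoter of *Nr0b2* is shown because its receptor inputs were present while its RNA was near 0. These are the 250 bases before the RefSeq start site (GRCm38.p6, chr4:133553126-133553375, plus strand), with capitals marking TCAAGG, the core of the sites that liver receptor homolog-1 binds. It occurs 2 times here on this strand, and 12.5% of the 32851 RefSeq promoter windows of the same length hold it on either strand, so the match is a description only.
Nr0b2: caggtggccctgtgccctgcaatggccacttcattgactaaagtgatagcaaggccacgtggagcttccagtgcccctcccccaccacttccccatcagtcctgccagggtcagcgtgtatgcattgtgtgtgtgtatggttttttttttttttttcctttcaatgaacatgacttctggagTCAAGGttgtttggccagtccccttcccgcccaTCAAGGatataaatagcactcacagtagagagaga

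Of 10 listed targets of FXR, liver receptor homolog-1 and SHP, 4 were tested and 0 called, with 1 above 0, 3 below and a median log2 fold change of -0.31. The list pools targets of activating receptors with those of the repressor SHP, so its signs and median have no single direction as receptor output. Apart from *Cyp27a1*, the tested genes had low counts. *Abcb11*, at 9 to 16 counts, differed by -0.42 (SE 0.34) and *Baat*, at 5 to 19 counts, by 0.14 (SE 0.51). With the length offset only *Cyp27a1* remained, at -0.18. *Cyp27a1*, the mitochondrial sterol 27-hydroxylase, was at 15.5, 16.6 and 15.1 CPM with vehicle and 14.3, 13.7 and 12.8 CPM with Shh. Every Shh library lay below every vehicle library, as did 8.74% of all genes tested, and the log2 fold change of -0.21 (SE 0.073) had an adjusted p of 0.469 in edgeR. It held most of the list's summed level, which was 17.6 to 18.7 CPM with vehicle and 15.2 to 16.0 CPM with Shh. *Abcb4*, the phospholipid exporter of bile, differed by -0.50 (SE 0.38) at 0.46 to 1.19 CPM. *Cyp7a1*, the rate-limiting enzyme of bile acid synthesis, and *Cyp8b1* had at most 1 count in any library.

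The xenobiotic receptor genes were low, *Nr1i2* at the floor and *Nr1i3* above it. PXR (*Nr1i2*), which induces drug-handling enzymes, had 2 counts in vehicle 2 and 0 in the other 5 libraries. CAR (*Nr1i3*), its companion in drug and bilirubin handling, had 15.2, 11.6 and 8.42 estimated counts with vehicle and 15.6, 7.49 and 12.8 with Shh. The groups overlapped fully (log2 fold change 0.018, SE 0.40), and the interval of -0.85 to 0.89 was the widest of the tested receptors. Of 12 listed targets, 6 were tested and 0 called, with 3 above 0, 3 below and a median of -0.0088. *Alas1*, the first enzyme of haem synthesis, was at 46.8, 47.7 and 43.5 CPM with vehicle and 44.5, 41.7 and 39.7 CPM with Shh (log2 fold change -0.13, SE 0.057, adjusted p = 0.473), and *Gadd45b*, a CAR target, differed by -0.18 (SE 0.097). *Cyp2b10*, the defining CAR target, had at most 1 count in any library.

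The retinoic acid receptors (RARs) bind retinoic acid and pair with the RXRs. *Rarg* was the main RAR gene, at 72.9% ± 0.48 (SD, n = 3) of the FPKM of the 3 genes with vehicle, and *Rara* made up 27.1% ± 0.487 (SD, n = 3). *Rarb*, itself a known retinoic acid target, had 0, 0 and 2 counts with vehicle and 0, 3 and 0 with Shh, at or under the 3 counts that a count of 0 allows. *Rarg* differed by -0.0095 (SE 0.045) and *Rara* by 0.031 (SE 0.057) between Shh and vehicle on the log2 scale.

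The *Rarb* promoter is shown because it carries the element through which RARs are known to act, while its RNA stood at 0 to 3 counts beside abundant *Rarg* and *Rara* RNA. These are the 250 bases before the RefSeq start site (GRCm38.p6, chr14:16575477-16575726, minus strand), with capitals marking a DR5 element, a pair of AGGTCA or AGTTCA motifs (A or G at the first base, G or T at the third) in the same direction with 5 bases between them. It lies 53 to 37 bases before the start, and 29 of 32851 RefSeq windows (0.0883%) hold such an element on either strand. The single core motif AGGTCA is common, in 14.0% of all windows and in 9 of the 47 windows of the 29 receptor genes with an entry in the RefSeq table.
Rarb: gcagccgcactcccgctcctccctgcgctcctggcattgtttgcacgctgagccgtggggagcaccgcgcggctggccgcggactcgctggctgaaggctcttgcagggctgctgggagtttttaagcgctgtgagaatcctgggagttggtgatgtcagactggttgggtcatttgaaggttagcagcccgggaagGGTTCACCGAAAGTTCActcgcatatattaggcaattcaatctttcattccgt

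The RXRs are the shared partners. *Rxrb* made up 63.3% ± 1.04 (SD, n = 3) of their FPKM with vehicle and *Rxra*, the main RXR of adult liver, 36.7% ± 1.04 (SD, n = 3). *Rxra* was at 46.9, 48.4 and 47.4 CPM with vehicle and 49.95, 49.45 and 42.71 CPM with Shh. Shh libraries lay on both sides of the vehicle range (log2 fold change -0.0060, SE 0.061, interval -0.14 to 0.13, adjusted p = 0.98). *Rxrb* was at 42.4, 43.2 and 38.6 CPM with vehicle and 39.9, 38.0 and 41.8 CPM with Shh, and the groups overlapped (log2 fold change -0.054, SE 0.058, interval -0.18 to 0.073, adjusted p = 0.753). *Rxrg*, the form of muscle and brain, had at most 1 count in any library.

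Summed over the 3 RXR genes the level was 26.6 FPKM (SD 1.04, n = 3) with vehicle and 26.6 FPKM (SD 0.179, n = 3) with Shh. Over 14 genes whose products usually pair with an RXR it was 128.5 FPKM (SD 4.42, n = 3) with vehicle and 129.1 FPKM (SD 3.56, n = 3) with Shh. RNA of the partners thus exceeded that of the RXRs in every library, and neither sum moved by more than its spread.

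Of 9 listed targets of retinoids and vitamin D, 5 were tested and 0 called, with 2 above 0, 3 below and a median of -0.0052. *Dhrs3*, which reduces retinal, differed by -0.051 (SE 0.085).

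Thyroid hormone receptors bind triiodothyronine, the vitamin D receptor its hormonal form, and *Rora* is a constitutive activator with links to lipid metabolism. *Thra* RNA made up 96.4% ± 1.5 (SD, n = 3) of the FPKM of the *Thra* and *Thrb* pair with vehicle, although *Thrb* is the form known to lead in liver. *Thra* overlaps *Nr1d1* on the other strand, and since the sources used here do not state that counting used strand, reads of the pair may not have been told apart. *Thra* differed by -0.0079 (SE 0.058) on the log2 scale, and *Thrb*, at 19.7 to 41.1 counts, by -0.037 (SE 0.28). *Vdr* was at 4.04, 3.88 and 3.61 CPM with vehicle and 3.86, 4.96 and 3.33 CPM with Shh, where Shh held both extremes (log2 fold change 0.077, SE 0.16). *Rora*, at 43.3 to 60.3 counts, differed by 0.13 (SE 0.18). Of 8 listed thyroid hormone targets, 6 were tested and 0 called, with 5 above 0, 1 below and a median of 0.063. *Klf9*, a thyroid hormone and glucocorticoid target, differed by 0.095 (SE 0.054) and *Hr*, a corepressor, by 0.16 (SE 0.13).

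The glucocorticoid receptor gene *Nr3c1* stood first by p. It was at 57.0, 57.5 and 56.4 CPM with vehicle and 57.3, 70.8 and 66.2 CPM with Shh. The vehicle libraries had a coefficient of variation of 1.00%, Shh 1 lay among them, and Shh 2 and Shh 3 lay above, so the groups overlapped. The log2 fold change was 0.19 (SE 0.067, 95% interval 0.040 to 0.33), with an unadjusted p of 0.0166 and an adjusted p of 0.469 in edgeR. Without Shh 1 it was 0.27 with an adjusted p of 0.0400, the one setting that called a receptor gene, and 195 genes were then called in all. Without Shh 2 it was 0.12 with an unadjusted p of 0.0693 in edgeR, without Shh 3 it was 0.17 with one of 0.0596, and without vehicle 3 it was 0.18 with one of 0.0519.

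**Figure D2:**
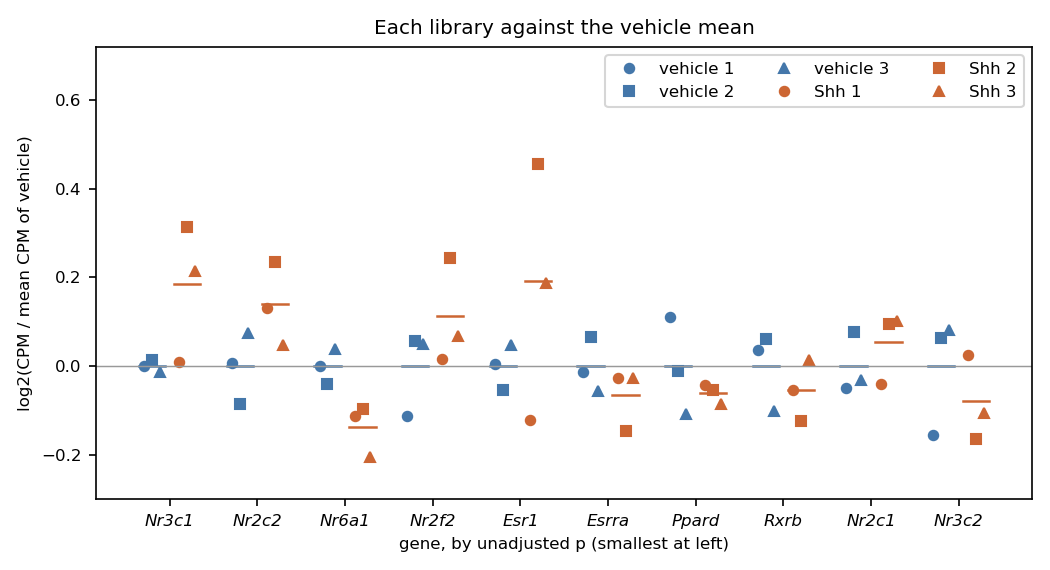
Log2 ratio of each library's CPM to the mean CPM of the vehicle libraries, for the 10 receptor genes with the smallest unadjusted p (blue vehicle, orange Shh, lines are the ratios of group means). Shh 1 lies near the vehicle libraries for *Nr3c1* while Shh 2 and Shh 3 lie above them, and *Nr6a1* alone has every Shh library below every vehicle library.

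Fold changes rose with transcript length over all genes (Spearman's rho 0.54 across 11471 genes, which share libraries and are not independent replicates), and *Nr3c1*, at 6358 bases, is a long transcript. With an offset for length its log2 fold change was 0.11, and with the offset and without Shh 2 it was 0.079. The part of length in its difference was not tested further. Of 10 listed targets of the glucocorticoid and mineralocorticoid receptors, 9 were tested and 0 called, with 6 above 0, 3 below and a median of 0.0027. *Fkbp5*, *Tsc22d3*, *Sgk1* and *Per1*, named here after their values were seen because they are textbook glucocorticoid targets, differed by 0.042 (SE 0.045), 0.0027 (SE 0.060), 0.012 (SE 0.037) and -0.0013 (SE 0.052). The smallest p belonged to *Zbtb16* (log2 fold change -0.26, SE 0.15) and *Pck1*, which encodes a gluconeogenic enzyme (0.75, SE 0.44). *Pck1* was at 6.48 CPM in Shh 1 and at 1.57 to 2.20 CPM in the other 5 libraries, and without Shh 1 its log2 fold change was -0.17.

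*Nr3c2*, the mineralocorticoid receptor gene, was at 6.58, 7.67 and 7.76 CPM with vehicle and 7.47, 6.55 and 6.82 CPM with Shh, and the groups overlapped (log2 fold change -0.080, SE 0.11, interval -0.31 to 0.15, adjusted p = 0.806). The estrogen receptor gene *Esr1* was at 6.48, 6.22 and 6.67 CPM with vehicle and 5.93, 8.86 and 7.36 CPM with Shh, with the lowest and the highest library both of Shh. Its log2 fold change was the largest of the tested receptors, at 0.19 (SE 0.14, interval -0.10 to 0.49, adjusted p = 0.608). It rested on Shh 2, since without that library it was 0.041, and without Shh 1 it was 0.33.

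The orphan receptors of the *Nr2* and *Nr6* families mostly repress, often by taking sites of other receptors. *Nr2c2* (TR4) was at 19.8, 18.6 and 20.8 CPM with vehicle and 21.6, 23.2 and 20.4 CPM with Shh. Shh 3 lay inside the vehicle range and the other Shh libraries above it (log2 fold change 0.14, SE 0.070, interval -0.012 to 0.29, adjusted p = 0.496). With the length offset the fold change was 0.074. Its relative *Nr2c1* (TR2) was at 16.5, 18.0 and 16.7 CPM with vehicle and 16.6, 18.3 and 18.3 CPM with Shh (log2 fold change 0.055, SE 0.069, interval -0.095 to 0.20, adjusted p = 0.792), and the groups overlapped.

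*Nr6a1* (germ cell nuclear factor), known for silencing pluripotency genes, was the one tested receptor gene whose groups did not overlap. It was at 11.02, 10.70 and 11.32 CPM with vehicle and 10.2, 10.3 and 9.56 CPM with Shh. The log2 fold change was -0.14 (SE 0.078, interval -0.31 to 0.033, adjusted p = 0.533). This was 4.0% of the tested receptor genes beside 8.74% of all genes, and no tested receptor gene had every Shh library above every vehicle library, beside 6.77% of all genes. Unlike *Nr3c1* it moved against the trend with length at 6031 bases, and with the length offset its log2 fold change was -0.20 at an unadjusted p of 0.0213.

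*Nr2f2* (COUP-TFII) was at 28.3, 31.9 and 31.7 CPM with vehicle and 31.0, 36.2 and 32.1 CPM with Shh, so that Shh 1 lay inside the vehicle range (log2 fold change 0.11, SE 0.071, interval -0.042 to 0.27, adjusted p = 0.57). Without Shh 2 it was 0.042. *Nr2f6*, the most abundant of the family, differed by -0.029 (SE 0.045), an interval of 0.92 to 1.05-fold. *Nr2f1* (COUP-TFI) had 0 to 2.02 estimated counts, so the *Nr2f* genes were represented by *Nr2f6* and *Nr2f2*.

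The estrogen-related receptors drive mitochondrial genes together with PGC-1 coactivators. *Esrra* was at 68.5, 72.4 and 66.5 CPM with vehicle and 67.9, 62.5 and 67.9 CPM with Shh. Only Shh 2 lay outside the vehicle range (log2 fold change -0.066, SE 0.052, interval -0.18 to 0.047, adjusted p = 0.655), and without Shh 2 the log2 fold change was -0.027. *Esrrg*, not tested for its low counts, had 8, 7.78 and 7 estimated counts with vehicle and 9, 11 and 10 with Shh. All Shh libraries lay above all vehicle libraries, as in 6.77% of all genes tested. At such low counts no fold change was given. *Hnf4g*, a relative of *Hnf4a* also not tested, had 3.37, 2.04 and 3.24 estimated counts with vehicle and 3.36, 10.1 and 6.07 with Shh, and the groups overlapped.

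All 8 listed ERR targets were tested and 0 called. Their log2 fold changes were below 0 for 6 of 8, with a median of -0.073 beside 0.0028 for all genes. Relative to the vehicle mean the median was -0.029 in Shh 1, -0.17 in Shh 2 and -0.045 in Shh 3. It was -0.037 without Shh 2, -0.040 with the length offset and -0.014 with both. *Cox5b*, a subunit of cytochrome oxidase, was at 226, 222 and 221 CPM with vehicle and 219, 183 and 216 CPM with Shh (log2 fold change -0.11, SE 0.059, adjusted p = 0.504). At 520 bases it is a short transcript, and its log2 fold change was -0.038 without Shh 2 and 0.0079 with the length offset. *Atp5b*, a subunit of ATP synthase, differed by -0.069 (SE 0.041), and by -0.040 with the offset.

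**Figure D3:**
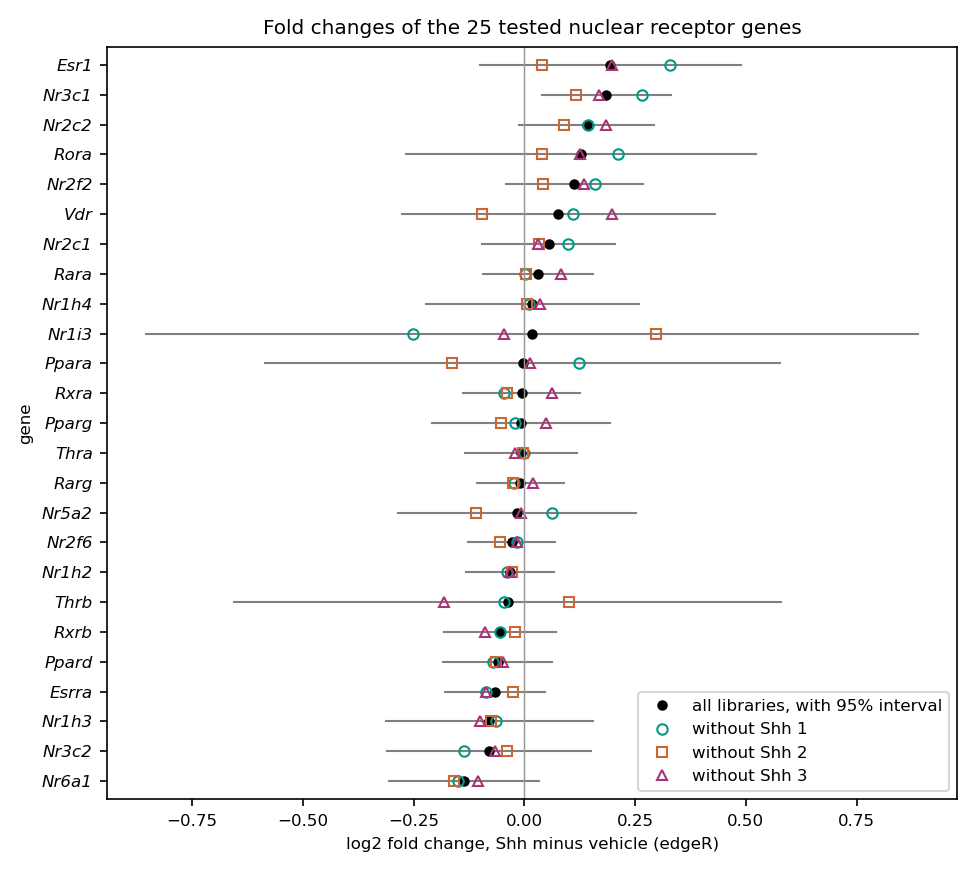
Log2 fold change (Shh minus vehicle, edgeR) of the 25 tested receptor genes with its 95% interval, and the value without each Shh library in turn. *Nr3c1* is the one gene whose interval lies above 0, from 0.040 to 0.33, and the values of *Esr1*, *Nr2f2*, *Vdr* and *Rora* fall toward or below 0 without Shh 2.

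The coregulators that receptors exchange were listed beside them, and the difference between the lists was not tested. Of 24 listed, 23 were tested and 0 called, 20 lay above 0, and their median log2 fold change was 0.088 beside -0.0074 for the receptors and 0.0028 for all genes. At an unadjusted p under 0.05, 6 of the 23 were higher with Shh, beside 4.83% of all genes, and 0 lower, beside 5.56%. None was at that level without Shh 2 or without vehicle 2. In 6 of the 23 every Shh library lay above every vehicle library, beside 6.77% of all genes. Among the 12 coactivators tested, *Ncoa2* was at 63.3, 62.4 and 60.5 CPM with vehicle and 64.4, 77.7 and 66.6 CPM with Shh (log2 fold change 0.16, SE 0.065, adjusted p = 0.469). *Ncoa6* was at 98.6, 92.0 and 98.3 CPM against 101, 110 and 102 CPM (0.12, SE 0.049, adjusted p = 0.469). For both, every Shh library lay above every vehicle library, and Shh 2 was the highest.

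Among the 11 corepressors tested, *Ncor1*, which holds histone deacetylase 3 on unliganded receptors, was at 179, 169 and 177 CPM with vehicle and 180, 202 and 189 CPM with Shh (log2 fold change 0.12, SE 0.049, adjusted p = 0.469). *Nrip1*, a ligand-dependent corepressor, was at 44.7, 44.9 and 46.4 CPM against 44.1, 56.6 and 52.3 CPM (0.17, SE 0.076, adjusted p = 0.477). Shh 1 was the lowest of the 6 libraries for *Nrip1*, and without it the adjusted p was 0.0462.

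The coregulator values differed between libraries and went with transcript length. The median coregulator stood at -0.0044 in Shh 1, 0.20 in Shh 2 and 0.037 in Shh 3 relative to the vehicle mean (log2). The coregulator transcripts had a median length of 6194 bases beside 3131 for the receptors and 2690 for all genes, and the median log2 fold change was -0.090 in the quintile of all genes with the shortest transcripts and 0.070 in that with the longest. With the length offset the coregulator median was 0.022 with 16 of 23 above 0 and none at an unadjusted p under 0.05, and with the offset and without Shh 2 it was -0.00068. Across the 22 receptor genes with a length, rho was 0.20.

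**Figure D4:**
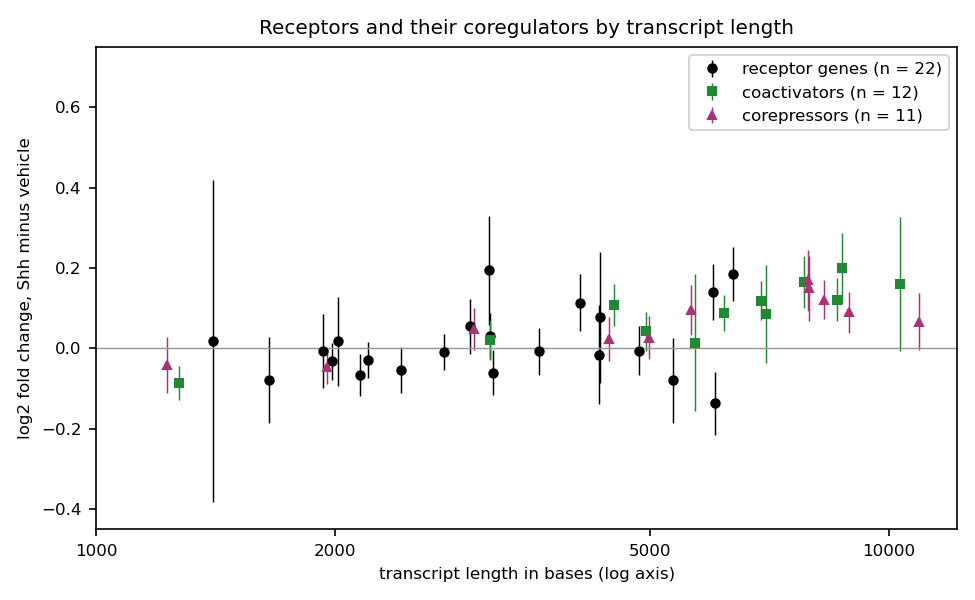
Log2 fold change (Shh minus vehicle, bars are SE) against transcript length on a log axis for 22 receptor genes, 12 coactivators and 11 corepressors. The long coregulators sit above 0 and the shortest below, and the receptor genes, with a median length of 3131 bases, scatter around 0.

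Of the 17 listed nuclear receptors outside the 32, 6 were tested and 0 called. *Nr1d1*, a clock repressor, had the smallest p (log2 fold change 0.11, SE 0.071).

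Markers of other cells were measured beside these values. Summed over the list, macrophage markers were at 17.1 to 17.35 CPM with vehicle and 14.1 to 20.8 CPM with Shh, stellate cell and fibroblast markers at 19.5 to 33.3 and 15.8 to 51.2, endothelial markers at 1.14 to 2.34 and 1.23 to 2.72, and cholangiocyte markers at 238 to 245.5 and 237 to 247. The defining macrophage marker *Adgre1* and the stellate marker *Lrat* reached at most 0.445 and 0.0524 CPM. Hepatocyte markers summed to 2217 to 2254 CPM with vehicle and 2111 to 2231 CPM with Shh. The ranges overlapped for each list, and their part in the receptor values was not tested.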

How the data were processed

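The authors made the libraries from poly(A) RNA of Hepa 1–6 cells and deposited one table with an estimated count, an FPKM and a TPM value per gene and library. The submitters' processing notes list Bowtie2, while the counting tool, genome build and annotation were not given in the sources used here. FPKM values, deposited by the authors and scaled to transcript length and library size, were used only to compare genes. The 6 TPM columns were not used. Of the estimated counts above 0, 36.4% were not whole, and counts were rounded to whole numbers. Libraries held 20253781 to 20335463 counts, and floors cover counting error only, while the edgeR intervals also hold the spread between libraries.

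Shh was compared with vehicle in R 4.3.3 by edgeR 4.0.16 (TMM factors, quasi-likelihood test, genes kept by filterByExpr with at least 10 counts at the typical depth and 15 in total, Benjamini-Hochberg adjustment over all 12286 genes tested, threshold 0.05). CPM values use the TMM factors. Alternatives were RLE and upper-quartile factors, DESeq2 1.42.0, no filter, 5 CPM in 3 libraries, the replicate number as a block, a spline offset on transcript length (from counts and FPKM of at least 0.5, 5 degrees of freedom), and each library left out. The length offset without Shh 2 was added after seeing the data. The code was tested on simulated data.

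Full statistics were given for the 10 tested receptor genes with the smallest p and for *Ppara*, *Pparg*, *Nr1h3*, *Nr1h4*, *Nr0b2*, *Rxra* and *Esrra*, and of each other list the genes past the threshold and the 2 with the smallest p were named. Genes singled out for being near 0, for a role or for their values fall outside that rule. The genes, lists and tests were chosen with earlier results of these data known. Listed genes without a row were not analysed here, and 2 named by this rule are not reported here. Same-numbered libraries deviated together with correlations of -0.040, -0.054 and 0.098, and differently numbered ones with -0.18 to 0.21. These values show no pairing by number, but 3 libraries per group are too few to settle it. The series' design text speaks of exosomes of mouse liver, whereas the labels of all 6 libraries name Hepa 1–6, and the labels were followed. RefSeq promoter windows (GRCm38.p6) were matched by symbol for 29 of the 32 genes; *Nr3c1*, *Thra* and *Hnf4g* were not matched.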

Additional observations from a re-analysis of the deposited data

How the results depend on the processing

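The calls rested on which libraries were kept. Over all genes, 0 were called by edgeR with TMM, RLE or upper-quartile factors, with at least 5 CPM in 3 libraries and with the replicate number as a block, and 0 by DESeq2. Without a filter 1 gene was called, with the length offset 1, with the replicate block and length offset 4, and with the length offset and without Shh 2 (an alternative chosen after seeing the data) 2. Leaving out each library in turn gave 0 to 195, with 195 without Shh 1. Receptor genes called ranged from 0 to 1 over these (1 without Shh 1, *Nr3c1*), target genes from 0 to 1 and coregulators from 0 to 1, each 1 also without Shh 1 (*Fabp4* and *Nrip1*). Receptor genes at an unadjusted p under 0.05 were 1 in edgeR and DESeq2, 2 with the length offset and 2 with the replicate block and length offset (*Nr6a1* and *Nr3c1*), 0 with the offset and without Shh 2, and 0 (without Shh 2) to 3 (without Shh 1) with a library left out. The 1 gene was *Nr3c1* except without Shh 3 and without vehicle 3, where it was *Nr2c2*. Of all genes, 10.4% were at that level in edgeR, 6.63% in DESeq2, 6.18% with the length offset and 7.46% with block and offset. The share was 4.25% with the offset and without Shh 2, 6.2% without Shh 2 and 21.1% without Shh 1. In that last setting 26 receptor genes were tested, and these counts are not a result about the receptors. Tested receptor genes with no overlap between the groups numbered 1, 2 without a filter, and 2 to 8 with a library left out, where fewer libraries make separation easier. In the main fit 6.77% of all genes lay wholly above and 8.74% wholly below. For the other settings no share over all genes is given here, so their counts are not a result about the receptors. The receptor median ran from -0.026 to 0.013 with a library left out. The replicate block changed no other call, gave *Nr3c1* 0.18 and the receptor median -0.0082, and left 0 receptor genes called.

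The sign held under every alternative for 14 of the 25 tested receptor genes, *Nr3c1*, *Nr6a1*, *Nr2c2*, *Nr2f2* and *Esr1* among them, and turned in at least 1 for the other 11. With a library left out, log2 fold changes ran from -0.16 to 0.14 for *Ppara*, -0.053 to 0.049 for *Pparg*, -0.025 to 0.079 for *Nr1h4*, -0.25 to 0.30 for *Nr1i3*, -0.11 to 0.061 for *Nr5a2*, -0.026 to 0.019 for *Rarg*, -0.046 to 0.063 for *Rxra*, -0.038 to 0.012 for *Thra*, -0.29 to 0.17 for *Thrb* and -0.096 to 0.20 for *Vdr*. Among other genes they ran from -0.13 to 0.037 for *Dhrs3*, -0.17 to 1.08 for *Pck1*, -0.033 to 0.073 for *Ptch1* and -0.060 to 0.10 for *Gli1*. With the length offset *Pparg* was 0.018, *Cox5b* 0.0079 and *Ptch1* -0.048, and with the replicate block and length offset 0.017, 0.0076 and -0.045. With the offset and without Shh 2, *Rara* was -0.0084, *Vdr* -0.12, *Cox5b* 0.018, *Ptch1* -0.046 and *Gli1* -0.078. The cause was not tested. *Ppara*, *Nr1i3* and *Thrb* are limited by depth, at 41.1 counts or fewer in each library.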
